A study of Mus musculus with 6 samples.

Results

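The genes described here are 35 members of the cholesterol and fatty acid synthesis pathways, chosen by symbol from the 27546 genes of the deposited FPKM table. They comprise 18 enzymes of sterol synthesis, 8 enzymes of fatty acid synthesis, 5 genes that encode or control the transcription factors of these pathways (SREBPs), and 4 genes of sterol transfer and export. Each was compared in colon tissue between 3 Gm31629-/- mice and 3 WT littermates by RNA-Seq. Each of the 6 libraries was treated as 1 mouse, although the methods speak of RNA pooled from 3 mice per genotype. All 6 mice were of the C57BL/6 strain by the labels (C57BL/6J by the methods) and 8 weeks old, drank 3% DSS (dextran sulfate sodium, which damages the lining of the colon) for 7 days, and were sacrificed on day 8. The comparison is therefore between genotypes under injury, and mice without DSS were not analysed here. Gm31629 is a long noncoding RNA, and the knockout targeted its locus on chromosome 1. The level of Gm31629 itself was not analysed here, so the genotype labels were not checked against it.

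Cells build cholesterol from acetyl-CoA through mevalonate, isoprenoid diphosphates, squalene, and lanosterol. When membrane sterol falls, SCAP escorts SREBP from the endoplasmic reticulum to the Golgi for cleavage, and the released factor activates the genes of the pathway, with SREBF2 acting mostly on sterol steps and SREBF1 mostly on fatty acid steps. INSIG proteins hold SCAP back when sterol is plentiful. Surplus sterol gives rise to oxysterols, which activate LXR receptors and the exporters ABCA1 and ABCG1. In the intestine, epithelial cells are a major site of sterol synthesis, and dividing cells need sterol and fatty acids for new membrane.

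Values are FPKM, fragments per kilobase of gene scaled to the depth of the library, so levels can be compared between genes per length. The libraries held an estimated 17916600 to 18851300 mapped fragments, and genes above 0 numbered 22456 to 23600 in Gm31629-/- mice and 19938 to 20118 in WT mice. The 15 markers of colon epithelium were abundant in both groups, with summed levels of 8094 to 9590 FPKM in Gm31629-/- mice and 12973 to 14171 FPKM in WT mice. The labelled tissue is colon, but the 12 smooth muscle markers summed to only 25.7 to 45.8 FPKM in WT mice, against 1323 to 2050 FPKM in Gm31629-/- mice. Macrophage markers summed to 58.5 to 73.2 FPKM in WT mice and 587 to 1299 FPKM in Gm31629-/- mice, fibroblast markers to 17.4 to 37.6 and 199.5 to 565 FPKM, and adipocyte markers to 77.8 to 132.7 and 189 to 643 FPKM. All 11 tested smooth muscle markers were higher in Gm31629-/- mice, as were 11 of 12 markers of enteric neurons and glia and 7 of 7 of fibroblasts. So were 7 of 7 markers of endothelium, 7 of 7 of neutrophils, 4 of 6 of T cells, and 6 of 6 of B and plasma cells. Among all tested genes 28.9% were called higher, and skeletal muscle, with 1 of 3 markers higher, was near that share. The neuronal marker Elavl4 was listed at 0 in the 3 WT libraries. The libraries of the genotypes thus differed in the levels of marker transcripts of many cell types of the colon wall, and this difference ran with every result below. Levels above 0.5 FPKM of 4 Y-linked genes were seen only in Gm31629-/- mouse 1, whose Xist level was 0.00606 FPKM, while the other 5 libraries had 8.35 to 13.8 FPKM of Xist. The labels give no sex, and the methods describe the mice of the study as male, which these 5 libraries go against. In bulk tissue, fewer cells of a type and less RNA per cell cannot be told apart. The part of tissue makeup in the differences below was not tested. The rescaling to epithelial markers given at the end divides all genes of a library by the same factor, so it cannot separate cell types.

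**Figure D1:**
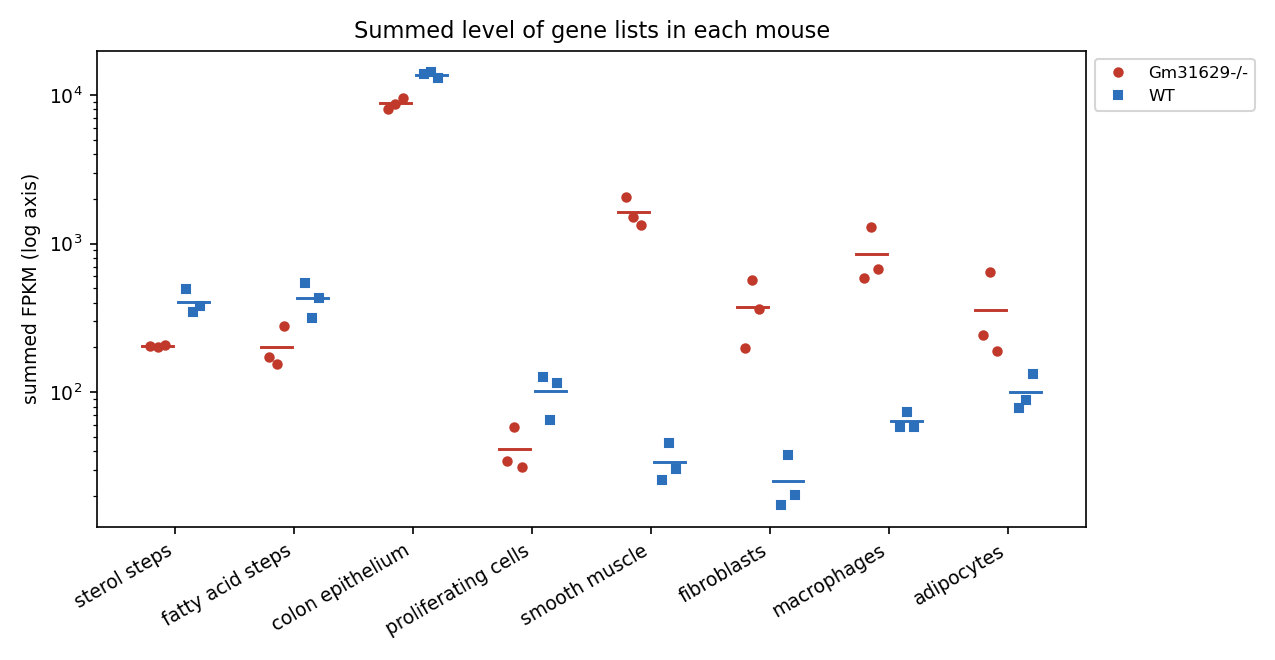
Summed FPKM (log axis) of 8 gene lists in each mouse, with circles for Gm31629-/- mice, squares for WT mice, and a bar at the mean of each group. The sterol steps lay at 201 to 209 FPKM in Gm31629-/- mice and at 346 to 493 FPKM in WT mice, while the smooth muscle markers lay far higher in Gm31629-/- mice.

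All 35 members passed the filter of a mean of at least 0.5 FPKM. In Gm31629-/- mice, 20 members were lower and 3 were higher at an adjusted p under 0.05 (limma on log2 of FPKM + 1, Benjamini-Hochberg adjustment over 14657 tested genes). Among all tested genes, 14.6% were called lower and 28.9% higher, so the members ran against the direction of that whole set. That direction depended on level. When only genes with a mean of at least 5 FPKM were tested, 1405 of 7242 were higher and 1525 lower, with a median of -0.08. In that test 17 members were lower and 1 was higher. With the filter of 0.5 FPKM, 23 members were called in either direction, against 43.5%. Without Gm31629-/- mouse 1, the library with Y-linked transcripts, 19 members were lower and 4 higher. With a log2 fold change below -1 also required, 13 members were lower, against 4.64% of all tested genes, and with one above 1 required, 2 were higher, against 18.4%. The Gm31629-/- values lay wholly below the WT values for 21 members, against 21.5% of all tested genes, wholly above for 3, against 36.3%, and apart in either direction for 24, against 57.8%. The median log2 fold change over the members was -0.85, while over all tested genes it was 0.15. By role, the sterol steps, the fatty acid steps, and the SREBP control genes supplied all of the members called lower. The members called higher were Nr1h3, which encodes LXR alpha, and the exporters Abca1 and Abcg1.

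**Figure D2:**
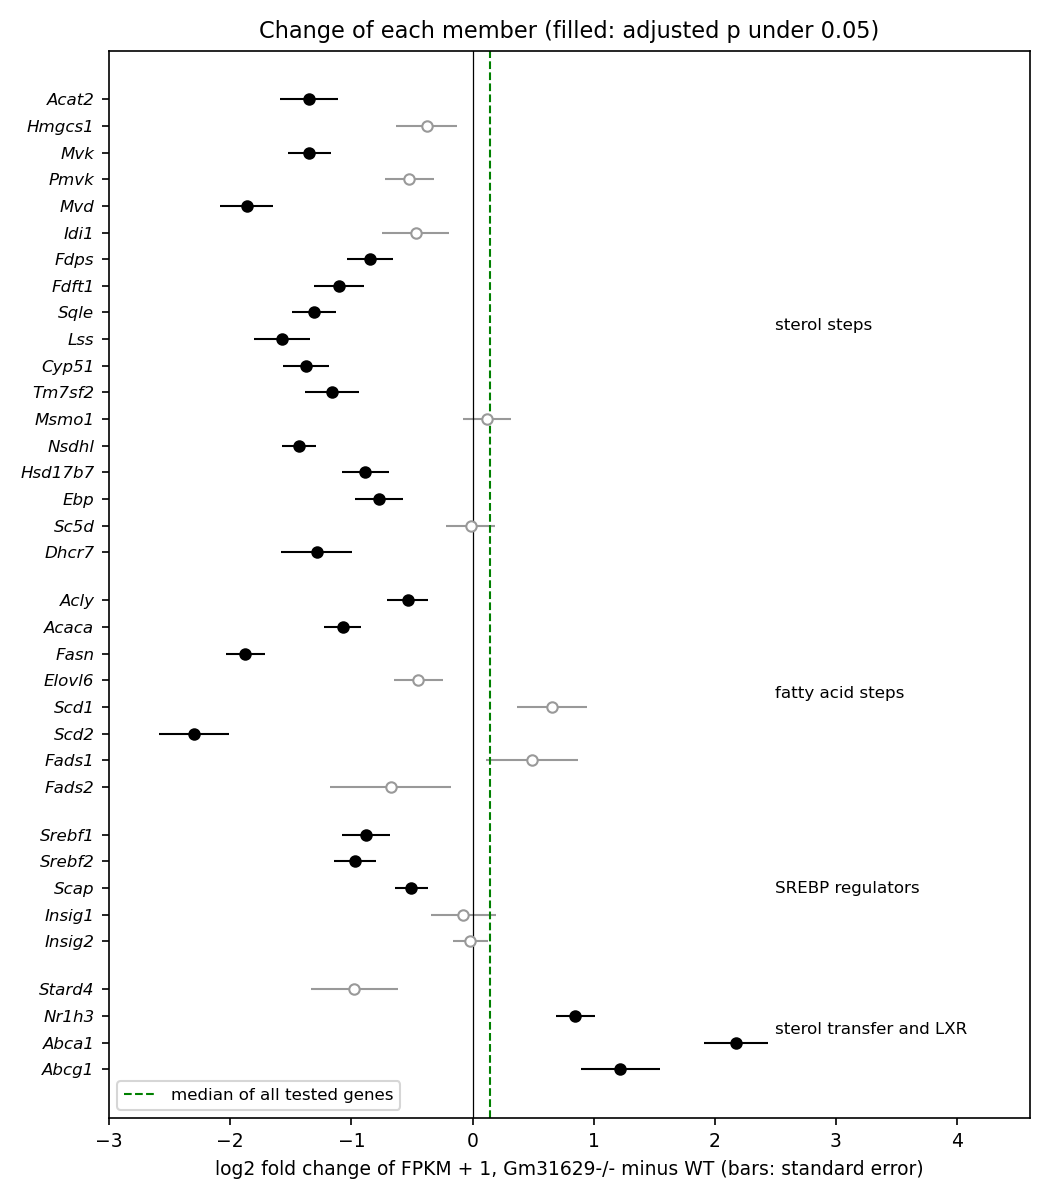
Log2 fold change of FPKM + 1 (Gm31629-/- minus WT) for each of the 35 members, with bars for the standard error, filled points for an adjusted p under 0.05, and a dashed line at the median of all tested genes (0.15). Most sterol steps lie between -1.87 and -0.77, Msmo1 and Sc5d lie near 0, and Abca1 lies at 2.18.

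Of the 18 sterol steps, 13 fell, none rose, and 5 did not pass. Their median log2 fold change was -1.13, and their summed level was 204 ± 3.98 FPKM (SD, n = 3) in Gm31629-/- mice and 406 ± 76.8 FPKM (SD, n = 3) in WT mice. The early steps lead from acetyl-CoA to mevalonate and its isoprenoid products. Acat2, the cytosolic thiolase that joins acetyl-CoA units, had 4.76, 5.56, and 3.83 FPKM in Gm31629-/- mice 1 to 3 and 17.4, 9.63, and 14.5 FPKM in WT mice 1 to 3. Every WT value exceeded every Gm31629-/- value (log2 fold change -1.35, limma adjusted p = 0.00446). Hmgcs1, which makes HMG-CoA, had 25.3, 20.8, and 16.4 FPKM in Gm31629-/- mice and 37.7, 24.7, and 20.9 FPKM in WT mice. Its groups overlapped and it did not pass (log2 fold change -0.38, limma adjusted p = 0.26). Mvk, mevalonate kinase, had 6.32, 5.87, and 5.86 FPKM against 19.99, 13.3, and 17.9 FPKM in WT mice. Its Gm31629-/- values were nearly equal and all lay below WT (log2 fold change -1.35, limma adjusted p = 0.00155). Pmvk, the next kinase, had 16.2, 16.6, and 12.1 FPKM against 26.1, 17.1, and 23.2 FPKM. Its groups were adjacent without overlap, and the change did not pass (log2 fold change -0.52, limma adjusted p = 0.0747), although it did without WT mouse 2 (0.0427) and after rescaling by the median ratio (0.0229).

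Mvd, the decarboxylase that makes the isoprenoid building block, showed the largest fall among the sterol steps on the log2 of FPKM + 1, although the ratio of means was larger for Lss (4.02) and Fdps (4.45). It had 11.3, 14.3, and 10.04 FPKM in Gm31629-/- mice and 59.6, 36.9, and 42.9 FPKM in WT mice. The WT mean was 3.91 times the Gm31629-/- mean, and the groups lay far apart (log2 fold change -1.87, standard error (SE) 0.22, limma adjusted p = 0.000997). Idi1, the isomerase that follows, had 4.19, 3.39, and 2.73 FPKM against 8.13, 4.02, and 3.90 FPKM. WT mouse 1 alone stood clearly above the rest, and Idi1 did not pass (limma adjusted p = 0.207). Fdps, which builds farnesyl diphosphate, was listed at 0.465, 0.335, and 0.103 FPKM in Gm31629-/- mice and 1.35, 0.977, and 1.69 FPKM in WT mice. These levels rest on 36, 26, and 8 fragments against 105, 74, and 134, and 26.7% of the exon bases of Fdps are shared with the overlapping gene Gm43738 on the same strand, so its level is uncertain. The change passed (log2 fold change -0.85, limma adjusted p = 0.0111).

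From squalene to lanosterol and its first demethylation, each of the 4 genes fell. Fdft1, squalene synthase, had 19.2, 24.5, and 16.4 FPKM in Gm31629-/- mice and 54.3, 38.0, and 40.2 FPKM in WT mice (log2 fold change -1.10, limma adjusted p = 0.00558). Sqle, the squalene epoxidase and a control point of the pathway, had 11.4, 11.6, and 11.7 FPKM against 37.9, 24.4, and 29.4 FPKM. The Gm31629-/- mice hardly differed from each other in Sqle, while the WT mice ranged widely above them (log2 fold change -1.31, limma adjusted p = 0.0018). Lss, which closes the sterol rings, had 2.43, 1.92, and 1.16 FPKM against 9.04, 5.92, and 7.21 FPKM (log2 fold change -1.57, limma adjusted p = 0.00233). Cyp51, the lanosterol demethylase, had 13.5, 17.0, and 14.6 FPKM against 51.3, 34.4, and 37.1 FPKM (log2 fold change -1.37, limma adjusted p = 0.00179). The groups of all 4 genes were separate, with WT mouse 1 the highest each time. Of the exon bases of Fdft1, 18.3% overlap Ctsb on the other strand, and the library kit is not stated to keep strand, so reads there cannot be told apart.

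The late steps trim methyl groups and move double bonds to reach cholesterol, and here the genes differed among themselves. Tm7sf2, a sterol reductase, had 2.37, 2.75, and 4.17 FPKM in Gm31629-/- mice and 9.74, 6.63, and 7.90 FPKM in WT mice (log2 fold change -1.16, limma adjusted p = 0.00603), and 12.1% of its exon bases are shared with Vps51 on the same strand. The enzymes Msmo1, Nsdhl, and Hsd17b7 act in turn to remove the same methyl groups. Msmo1 had 23.6, 21.8, and 26.7 FPKM against 28.1, 21.7, and 17.4 FPKM, with full overlap (log2 fold change 0.12 as deposited and -0.04 after rescaling by the median ratio, limma adjusted p = 0.643 and 0.878). Nsdhl had 7.75, 6.84, and 7.50 FPKM against 23.6, 19.2, and 22.0 FPKM, a tight separation and the smallest adjusted p of the sterol steps (log2 fold change -1.43, SE 0.14, limma adjusted p = 0.000588). Hsd17b7 had 4.43, 3.14, and 2.70 FPKM against 7.92, 6.74, and 6.57 FPKM, again separate (log2 fold change -0.88, limma adjusted p = 0.00968). Thus a step with no measurable change stood beside a pair that fell in the same part of the pathway.

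Ebp, the isomerase that shifts a ring double bond, had 19.9, 19.8, and 30.7 FPKM in Gm31629-/- mice and 43.0, 35.8, and 41.2 FPKM in WT mice. It fell (log2 fold change -0.77, limma adjusted p = 0.0190), but did not pass without WT mouse 1 (0.0680) or WT mouse 3 (0.0720). Sc5d, the desaturase that follows, had 18.8, 17.6, and 23.9 FPKM against 25.3, 19.98, and 16.1 FPKM. Its groups overlapped fully (log2 fold change -0.02, limma adjusted p = 0.957). Dhcr7, the reductase that yields cholesterol, had 11.3, 7.28, and 18.3 FPKM against 32.3, 26.8, and 29.7 FPKM, and all 3 Gm31629-/- values, though scattered, lay below WT (log2 fold change -1.29, SE 0.29, limma adjusted p = 0.0122).

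**Figure D3:**
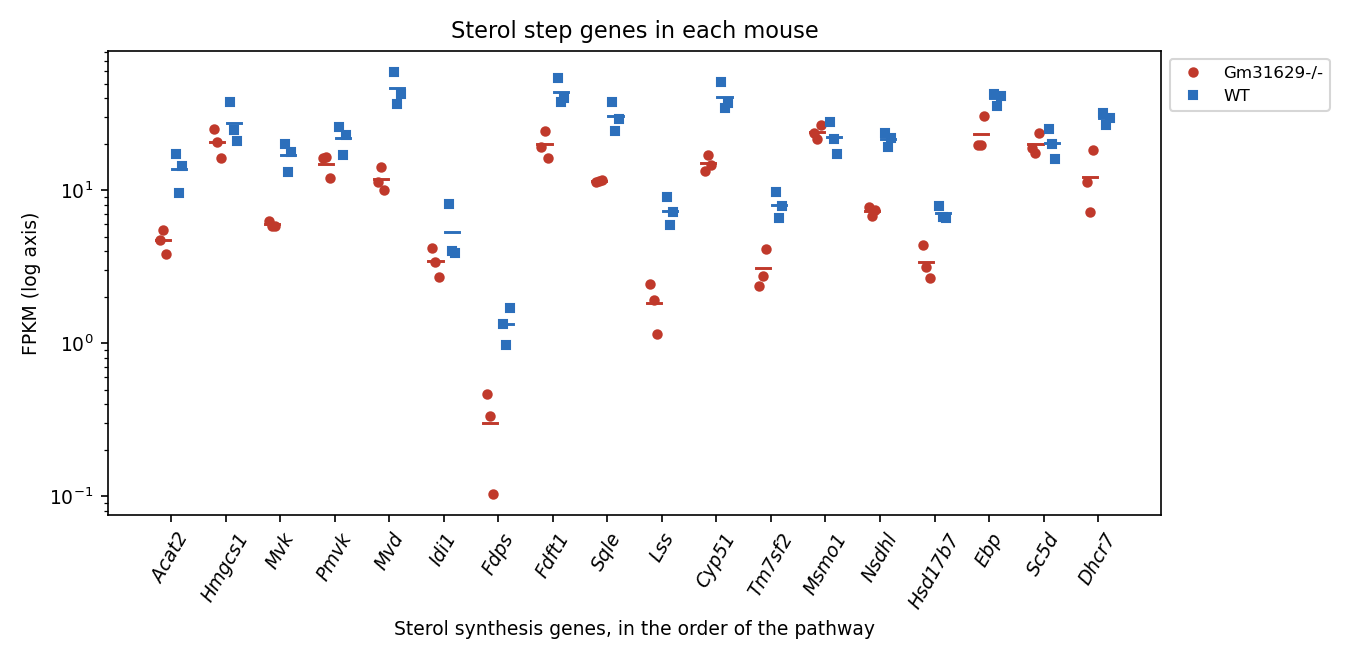
FPKM (log axis) of the 18 sterol step genes in the order of the pathway, with circles for Gm31629-/- mice, squares for WT mice, and a bar at each mean. The groups are separate for 14 genes and overlap for Hmgcs1, Idi1, Msmo1, and Sc5d.

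The sterol steps also varied together among the WT mice. WT mouse 1 was the highest of the 3 WT mice for 17 of 18 sterol steps, while it was the highest for 28.0% of all tested genes. WT mouse 2 was the lowest for 13 of 18, against 32.6% of all tested genes. In Gm31629-/- mice the highest value was shared out among mouse 1 (7 genes), mouse 2 (5 genes), and mouse 3 (6 genes). The summed level of 10 markers of proliferating cells was also lowest in WT mouse 2, at 64.5 FPKM, with 126.6 and 115.1 FPKM in WT mice 1 and 3, and it was 31.6 to 58.4 FPKM in Gm31629-/- mice, where 8 of the 10 markers fell. The part of cell division in the sterol steps was not tested.

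Because most sterol steps moved in the same direction, the bases just upstream of their gene starts were searched for letters bound by the factors of this pathway. SREBPs are known to act with the neighboring factors NF-Y, which binds CCAAT, and Sp1, which binds GGGCGG. RefSeq windows (GRCm38.p6, 250 bases before the start) were at hand for 27 of the 35 members. On either strand, CCAAT occurred in 14 of 15 sterol step windows and in 37.5% of 27025 genes, and GGGCGG occurred in 14 of 15 and in 35.4%. CACNCCAC, the core of an SREBP element, occurred in 2 of 15 sterol step windows (Acat2 and Hmgcs1) and in 6.05% of genes. The 27025 genes were not limited to those that passed the expression filter, as all members did, so these shares are not matched for expression. The fatty acid steps did not share the CCAAT pattern. Of their 5 windows, 1 had CCAAT (Fasn), 2 had GGGCGG, and 0 had CACNCCAC. CCAAT was present for 9 of 10 sterol steps that fell and for 5 of 5 that did not pass, so it did not separate them. The windows shown are those of Mvd and Fasn, the members with a window that fell most on the log2 of FPKM + 1, and of Hmgcs1, which did not pass. They lie at chr8:122443423-122443672 (minus strand), chr11:120824548-120824797 (minus strand), and chr13:119690101-119690350 (plus strand), and capitals mark CCAAT or its reverse complement ATTGG and, in Hmgcs1, the match CACCCCAC. In Fasn, a pair of CCAAT matches on opposite strands overlap.
Mvd: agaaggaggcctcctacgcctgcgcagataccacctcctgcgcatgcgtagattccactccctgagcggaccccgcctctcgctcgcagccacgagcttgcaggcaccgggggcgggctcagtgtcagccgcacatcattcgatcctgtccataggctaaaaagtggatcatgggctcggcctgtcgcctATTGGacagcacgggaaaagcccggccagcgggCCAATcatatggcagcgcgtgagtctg
Fasn: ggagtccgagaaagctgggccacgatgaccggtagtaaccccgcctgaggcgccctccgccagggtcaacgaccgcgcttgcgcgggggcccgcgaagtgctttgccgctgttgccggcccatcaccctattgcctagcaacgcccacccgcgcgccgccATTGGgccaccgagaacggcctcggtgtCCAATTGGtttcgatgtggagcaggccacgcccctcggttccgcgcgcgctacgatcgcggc
Hmgcs1: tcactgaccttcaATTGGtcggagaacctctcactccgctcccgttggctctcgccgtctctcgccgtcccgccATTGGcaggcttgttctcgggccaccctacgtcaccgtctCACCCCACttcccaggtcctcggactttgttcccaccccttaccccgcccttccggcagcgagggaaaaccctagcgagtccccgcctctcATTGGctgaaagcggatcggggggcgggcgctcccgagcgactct

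Fatty acid synthesis starts from cytosolic citrate, and of its 8 members 4 fell and 4 did not pass. Acly, which splits citrate into acetyl-CoA, had 33.5, 34.6, and 40.9 FPKM in Gm31629-/- mice and 61.0, 43.8, and 55.5 FPKM in WT mice. The fall was small (log2 fold change -0.54, limma adjusted p = 0.0386) and did not pass without Gm31629-/- mouse 1 (0.0854), Gm31629-/- mouse 2 (0.0779), WT mouse 1 (0.129), or WT mouse 3 (0.127), or with the replicate number as a block (0.0647). Acaca, the acetyl-CoA carboxylase that commits carbon to fatty acids, had 1.51, 1.73, and 1.60 FPKM against 4.58, 3.96, and 4.98 FPKM, well separated (log2 fold change -1.07, limma adjusted p = 0.0021). Fasn, the synthase itself, had 8.42, 9.68, and 8.44 FPKM against 37.0, 29.2, and 39.9 FPKM. The groups were far apart, and Fasn had the smallest adjusted p of the 35 members (log2 fold change -1.88, SE 0.16, limma adjusted p = 0.000374). Elovl6, which lengthens the product of Fasn, had 10.4, 7.72, and 10.1 FPKM against 14.6, 15.1, and 10.1 FPKM, with overlap (log2 fold change -0.45, limma adjusted p = 0.110).

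The desaturases Scd1 and Scd2, close paralogs that lie near each other on chromosome 19 and introduce the first double bond, went apart. Scd2 (chromosome 19, 44293674 to 44306864) was the most abundant member in WT mice, with 253, 134, and 183 FPKM, and had 28.8, 33.9, and 50.2 FPKM in Gm31629-/- mice. This was the largest fall among the 35 members on the log2 of FPKM + 1 and by ratio of means (log2 fold change -2.30, SE 0.29, limma adjusted p = 0.00127), with the WT mean 5.06 times the Gm31629-/- mean. Scd1 (chromosome 19, 44394455 to 44407879) had 9.60, 16.2, and 19.7 FPKM in Gm31629-/- mice and 12.1, 7.10, and 8.12 FPKM in WT mice. Its groups overlapped through Gm31629-/- mouse 1, and it did not pass (log2 fold change 0.65, limma adjusted p = 0.108), although it did without that mouse (log2 fold change 0.93, limma adjusted p = 0.0235). A plain ratio of FPKM within a library does not depend on how libraries are scaled. Scd1 was at 0.333, 0.478, and 0.392 of the FPKM of Scd2 in Gm31629-/- mice and at 0.0477, 0.0528, and 0.0443 in WT mice. On the log2 scale, with 1 added to each FPKM, the ratio was higher by 2.95 in Gm31629-/- mice (-1.27 ± 0.24 against -4.23 ± 0.14, SD, n = 3 each), with no overlap and an exact two-sided permutation p of 0.1, the smallest that 3 mice against 3 allow (0.3 after adjustment over 3 ratios). The added 1 can make this value depend on scaling, and with 0.1 added the difference was 3.03.

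The polyunsaturated fatty acid desaturases Fads1 and Fads2 are neighbors on chromosome 19 as well. Fads2 had 67.7, 34.0, and 140.6 FPKM in Gm31629-/- mice and 152, 75.2, and 118 FPKM in WT mice. Fads1 had 12.1, 16.1, and 9.26 FPKM against 11.5, 4.15, and 11.9 FPKM. Neither passed, and their groups overlapped (log2 fold change -0.68 and 0.49, limma adjusted p = 0.304 and 0.326). WT mouse 2 was the lowest WT mouse for 7 of the 8 fatty acid steps, against 32.6% of all tested genes.

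The genes that encode the SREBPs and their escort fell, while those of the INSIG retention proteins did not. Srebf2, the sterol regulator, had 39.8, 56.9, and 52.9 FPKM in Gm31629-/- mice and 100.3, 88.2, and 104.5 FPKM in WT mice, with a wide gap between the groups (log2 fold change -0.97, SE 0.17, limma adjusted p = 0.00491). Srebf1, the lipogenic regulator, had 12.8, 18.5, and 13.8 FPKM against 30.9, 22.6, and 31.8 FPKM, also separate (log2 fold change -0.88, limma adjusted p = 0.0120), but did not pass without WT mouse 3 (0.0550). The ratio of Srebf1 to Srebf2, taken on FPKM + 1, differed by 0.09 on the log2 scale between the groups (-1.67 ± 0.17 in Gm31629-/- and -1.76 ± 0.14 in WT mice, SD, n = 3 each, exact two-sided permutation p = 0.5, or 0.75 after adjustment over 3 ratios). Scap had 7.86, 9.23, and 8.79 FPKM against 11.8, 12.5, and 13.6 FPKM. It fell by 0.50 on the log2 scale (limma adjusted p = 0.0241) and did not pass without Gm31629-/- mouse 1 (0.0520), WT mouse 1 (0.0568), WT mouse 2 (0.0672), or WT mouse 3 (0.1004), or with the replicate number as a block (0.0565).

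Insig1, itself a sterol-regulated gene, had 43.1, 23.0, and 23.8 FPKM in Gm31629-/- mice and 37.7, 27.8, and 26.4 FPKM in WT mice. Insig2 had 12.8, 13.9, and 13.5 FPKM against 13.7, 15.3, and 11.9 FPKM. Both overlapped fully between the groups (log2 fold change -0.08 with standard error 0.27 and -0.02 with SE 0.14, limma adjusted p = 0.838 and 0.933). The ratio of Insig1 to Insig2, taken on FPKM + 1, was 1.04 ± 0.55 in Gm31629-/- mice and 1.10 ± 0.28 in WT mice on the log2 scale (SD, n = 3 each, exact two-sided permutation p = 0.8, also 0.8 after adjustment over 3 ratios).

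Of the 4 genes of sterol transfer and export, Nr1h3 and both exporters rose, and the carrier Stard4 did not pass. Abca1, the exporter that loads cholesterol onto lipoprotein particles, had 5.85, 6.52, and 2.97 FPKM in Gm31629-/- mice and 0.266, 0.445, and 0.210 FPKM in WT mice, the latter from 51, 83, and 41 fragments. Even the lowest Gm31629-/- mouse lay well above every WT mouse, and the mean was 16.6 times as high (log2 fold change 2.18 on the log2 of FPKM + 1, SE 0.26, limma adjusted p = 0.00112). Abcg1, a partner exporter, had 5.93, 9.05, and 3.95 FPKM against 3.32, 1.46, and 1.56 FPKM. It rose (log2 fold change 1.22, limma adjusted p = 0.0211) with a narrow gap between Gm31629-/- mouse 3 and WT mouse 1, and did not pass without Gm31629-/- mouse 2 (0.0502), WT mouse 2 (0.0706), or WT mouse 3 (0.0831). Nr1h3, which encodes LXR alpha, had 9.70, 13.5, and 12.4 FPKM against 5.91, 6.07, and 6.26 FPKM, where the WT mice were nearly equal (log2 fold change 0.85, limma adjusted p = 0.00606). Nr1h2, the gene of LXR beta and not a member, was more abundant and did not change. Its means were 41.0 FPKM in Gm31629-/- mice and 40.2 FPKM in WT mice (log2 fold change 0.03, limma adjusted p = 0.879). Stard4, a SREBP-regulated carrier of sterol in the cytosol, had 20.9, 7.03, and 12.4 FPKM against 27.1, 29.7, and 19.7 FPKM. Its groups overlapped through Gm31629-/- mouse 1 (log2 fold change -0.98, limma adjusted p = 0.0615), and it passed without that mouse (0.0113) and after rescaling by the median ratio (0.0402).

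Macrophages express Abca1, Abcg1, and Nr1h3 strongly, and all 10 macrophage markers rose, their median difference being 2.73 on the log2 scale. The most abundant of them, Lyz2, had 243, 621, and 347 FPKM in Gm31629-/- mice and 22.9, 33.8, and 26.3 FPKM in WT mice. Gm31629-/- mouse 2 was the highest in Lyz2 and also in Abca1, Abcg1, and Nr1h3. It was the highest Gm31629-/- mouse for 44.0% of all tested genes as well. The lowest Gm31629-/- mouse was mouse 1 for Lyz2 and Nr1h3 but mouse 3 for Abca1 and Abcg1. The part of macrophage content in these genes was not tested.

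**Figure D4:**
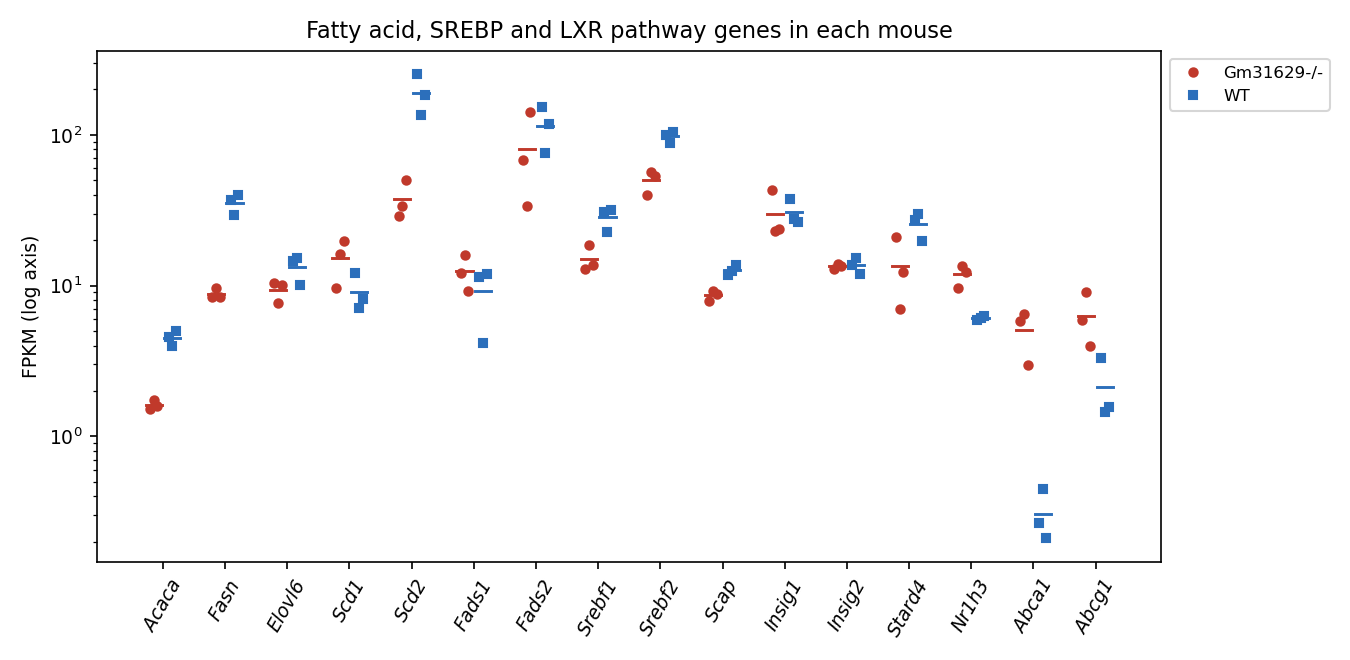
FPKM (log axis) of 16 members of fatty acid synthesis, SREBP control, and sterol export in each mouse, with circles for Gm31629-/- mice, squares for WT mice, and a bar at each mean. Scd2 and Fasn are separated downward, Insig1 and Insig2 overlap, and Abca1 is separated upward, from 0.210 to 0.445 FPKM in WT mice to 2.97 to 6.52 FPKM in Gm31629-/- mice.

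A further 56 genes of these pathways were listed, and 52 passed the filter. Of these, 16 fell and 9 rose at an adjusted p under 0.05, with a median log2 fold change of -0.26. Over all tested genes 14.6% fell and 28.9% rose, or 43.5% in either direction. The total called here was thus near the background, but a larger share fell and a smaller share rose than among all tested genes. Elovl3, Scd3, Scd4, and Paqr3 had means under 0.5 FPKM and were not tested. Among 8 genes of sterol and isoprenoid synthesis, 3 fell and 1 rose. Pdss2, which helps build the side chain of ubiquinone, fell from 4.84 ± 0.13 FPKM in WT mice to 1.56 ± 0.35 FPKM in Gm31629-/- mice (SD, n = 3 each, limma adjusted p = 0.00183).

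Among 18 tested genes of fatty acid synthesis and elongation, 9 fell and 1 rose. Slc25a1, the mitochondrial carrier that exports citrate, had 48.8, 47.4, and 52.8 FPKM in Gm31629-/- mice and 105.5, 88.0, and 111.3 FPKM in WT mice (log2 fold change -1.01, limma adjusted p = 0.00207). Acss2, which makes acetyl-CoA from acetate, fell from 6.48 ± 0.81 FPKM in WT mice to 2.47 ± 0.92 FPKM in Gm31629-/- mice (SD, n = 3 each, limma adjusted p = 0.0064). Slc25a1, Acly, and Acss2, which together supply cytosolic acetyl-CoA, thus each passed as lower as deposited, though after rescaling to epithelial markers Slc25a1 (-0.41, limma adjusted p = 0.0848) and Acly did not. The gene that rose, Thrsp, a lipogenic factor abundant in adipose tissue, had 1.22, 5.22, and 2.31 FPKM against 0.0988, 0.279, and 0.705 FPKM (log2 fold change 1.42, limma adjusted p = 0.0212), and did not pass without Gm31629-/- mouse 3 (0.0509), WT mouse 1 (0.0746), or WT mouse 2 (0.0622). The adipocyte gene Adipoq had 4.01, 38.3, and 12.8 FPKM against 0.431, 0.643, and 3.16 FPKM and was highest and lowest in the same mice as Thrsp. Cfd, the adipocyte marker with the highest mean in Gm31629-/- mice, had 149.8, 375.7, and 86.2 FPKM against 3.40, 2.71, and 36.4 FPKM. Unlike Thrsp, Cfd was lowest in Gm31629-/- mouse 3 and WT mouse 2. Of 10 tested adipocyte markers, 7 rose and 1, Pparg, fell. The part of adipocyte content in Thrsp was not tested. Of 6 tested genes of SREBP processing, 1 fell and none rose.

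Among 20 genes of sterol transfer, esterification, and LXR response, 7 rose and 3 fell, shares close to the 28.9% and 14.6% of all tested genes. Gramd1a, which moves cholesterol from the plasma membrane to the endoplasmic reticulum, had 9.63, 17.7, and 11.2 FPKM in Gm31629-/- mice and 1.48, 1.49, and 1.84 FPKM in WT mice (log2 fold change 2.37, limma adjusted p = 0.00056). Its relative Gramd1b also rose (log2 fold change 1.04, limma adjusted p = 0.0206), but not without WT mouse 1 (0.0745) or WT mouse 3 (0.0659). Ch25h, which makes an oxysterol and is induced in activated macrophages, had 2.42, 7.79, and 7.70 FPKM against 0.0400, 0.329, and 0.158 FPKM, again with wide separation (log2 fold change 2.45, limma adjusted p = 0.0026). Cyp27a1, a sterol hydroxylase, rose from 7.45 ± 2.27 FPKM in WT mice to 24.9 ± 11.0 FPKM in Gm31629-/- mice (SD, n = 3 each, limma adjusted p = 0.0106). Abcg5, a sterol exporter, rose by a log2 fold change of 1.10 (limma adjusted p = 0.0170), but not without WT mouse 3 (0.0691). In the same list Abcg8 did not pass (log2 fold change 0.56, limma adjusted p = 0.0968). Lpcat3, also in the list, fell (log2 fold change -0.87, limma adjusted p = 0.00377). Tmem97, a sterol-regulated membrane protein, had 21.1, 13.04, and 13.8 FPKM against 76.98, 43.4, and 62.6 FPKM and fell with the synthesis enzymes (log2 fold change -1.86, limma adjusted p = 0.00198). Stard5, a sterol-binding protein, fell as well (log2 fold change -1.40, limma adjusted p = 0.00168).

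How libraries are scaled sets where 0 lies. Rescaling by the median ratio moved the median of all tested genes from 0.15 to 0.02 and gave 3826 genes higher and 3076 lower, in place of 4238 and 2138. Under it 22 members were lower and 3 higher. Of the 15 epithelial markers, 7 fell and none rose, with a median log2 fold change of -0.50. When each library was rescaled to these markers, the median of all tested genes was 0.61, with 7439 genes higher and 503 lower. On this scale 12 members stayed lower at an adjusted p under 0.05, of which 9 were sterol steps and 3 fatty acid steps, and 7 were higher. The sterol steps had a median of -0.63, and the epithelial markers themselves ranged from -2.54 (Cdx2) to 1.13 (Tspan8), with a median of 0.11. Among the members, Scd2, Fasn, and Mvd were the lowest, at -1.69, -1.30, and -1.28 (limma adjusted p = 0.00231, 0.00141, and 0.00309). Srebf1 and Srebf2 no longer passed (-0.29 and -0.36, limma adjusted p = 0.317 and 0.163), and neither did Fdft1, Hsd17b7, Ebp, or Dhcr7. Acly and Scap changed sign (0.07 and 0.06) and did not pass. Msmo1, Sc5d, Insig2, and Scd1 passed as higher (0.71, 0.57, 0.56, and 1.22, limma adjusted p = 0.0142, 0.0375, 0.0161, and 0.00992), near or above the median of all genes, beside Abca1, Abcg1, and Nr1h3.

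**Figure D5:**
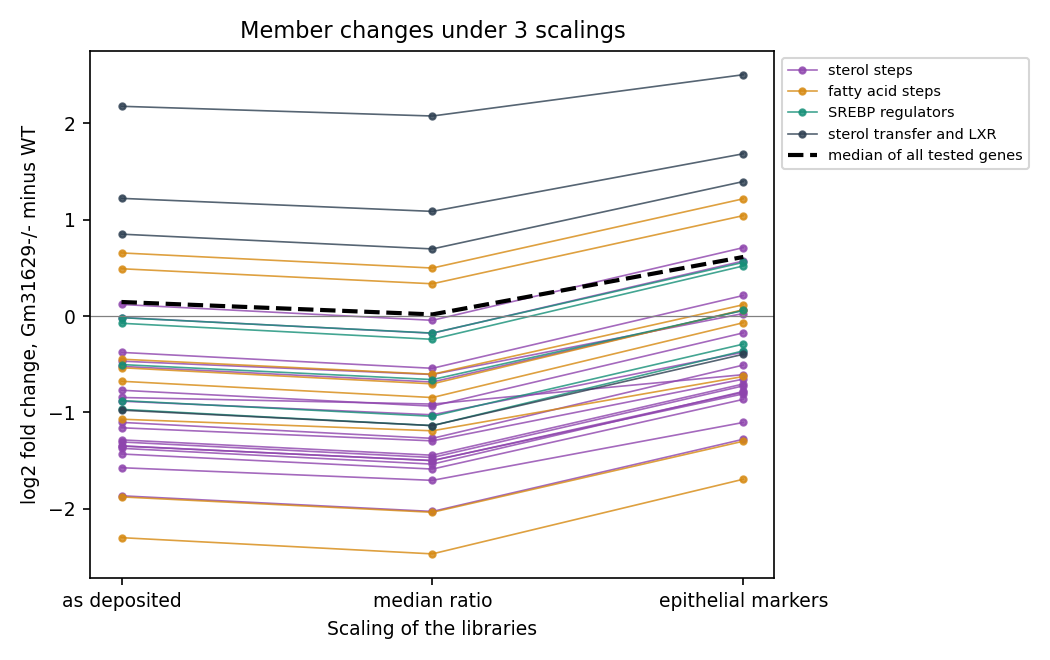
Log2 fold change of each of the 35 members (Gm31629-/- minus WT) with the libraries as deposited, rescaled by the median ratio, or rescaled to 15 epithelial markers, colored by role, with a dashed line for the median of all tested genes. Rescaling to epithelial markers takes the sterol step median from -1.13 to -0.63.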

How the data were processed

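RNA-Seq libraries were made with the Illumina TruSeq kit from total RNA of colon. The methods speak of RNA pooled from 3 mice per genotype, whereas the table holds 3 columns per genotype. The columns were treated as separate mice. The authors deposited FPKM values, and the submitters' processing notes name HISAT2 2.1.0, HTSeq 0.6.0, and GRCm38, with the annotation not given in the sources used here. The authors used DEGseq, which was not repeated here.

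Symbols, coordinates, and exon lengths came from GENCODE M21 (GRCm38), which matched 27488 of 27546 identifiers. Depth was estimated from the size of 1 fragment (96.4% to 97.3% of values of up to 20 fragments lay within 0.1 of a whole number), and the resulting limits cover counting error only. Genes with a mean of at least 0.5 FPKM were tested on log2(FPKM + 1) with limma 3.58.1 (R 4.3.3), using a linear model and trended empirical Bayes moderation. This scale understates changes of low genes. Scripts were tested on simulated data. Replicates differed by more than counting noise. The WT mice are described as littermates, but which mice shared a litter is not stated. Each limma p-value sets the difference between the groups against the spread between these libraries. Ratios were compared as log2 ratios of FPKM + 1 by exact permutation. Alternatives were another pseudocount, other filters, 3 rescalings, no trend, the replicate number as a block, voom on recovered fragments, and leaving out each mouse.

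The members and lists were chosen with earlier results of these data known. All members are named, and of the other pathway genes those past an adjusted p of 0.05 and a log2 fold change of 1 in either direction, except for items that are not reported here. Adipoq, Cfd, Pparg, Lyz2, Cdx2, Tspan8, Elavl4, Xist, Nr1h2, Abcg8, Lpcat3 and genes named for not being tested were added after their values were seen. Figures were drawn with matplotlib 3.10.9.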

Additional observations from a re-analysis of the deposited data

How the results depend on the processing

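Of 693 values for 47 genes under up to 15 alternatives, 637 kept their direction and side of the threshold, 30 lost the call, 7 gained it, and 19 changed sign. The sign changes were all of genes with an adjusted p above 0.05 except Acly and Scap. Rescaling to epithelial markers moved the most. It gave 7 members higher and 12 lower at an adjusted p under 0.05 (4 and 4 with the fold threshold), 18 other pathway genes higher and 5 lower, and medians of -0.63 for sterol steps and -0.0017 for fatty acid steps, and it changed the sign of Hmgcs1 (0.21), Pmvk (0.061), Idi1 (0.026), Sc5d (0.57), Acly (0.066), Elovl6 (0.12), Scap (0.058), Insig1 (0.52), and Insig2 (0.56). The median ratio turned Msmo1 to -0.044. The sterol median was -1.36 with a pseudocount of 0.1 and -1.37 with voom. Testing only genes with a mean of at least 5 FPKM left 1 member higher (0 with the fold threshold) and 4 other pathway genes higher, since fewer genes were tested. All tested genes gave 1405 calls higher and 1525 lower in that case, 3875 and 1514 with the replicate block, and 2793 and 981 without WT mouse 3, in place of 4238 and 2138.

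Leaving out 1 mouse at a time, members higher with the fold threshold numbered 1 to 2, other pathway genes numbered 5 to 9 higher and 9 to 17 lower (the fewest without WT mouse 3), and the fatty acid median lay between -0.84 and -0.41. Values near 0 changed sign: Msmo1 lay between -0.041 and 0.29, Sc5d between -0.17 and 0.14, Insig1 between -0.36 and 0.079, Insig2 between -0.10 and 0.062, and the log2 ratio of Insig1 to Insig2 between -0.37 and 0.12.

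Replicate numbers did not pair the mice (correlations of deviations 0.04, -0.11, and 0.01 for numbers 1, 2, and 3). With the replicate block, 18 members were lower and 3 higher, Acly and Scap being lost, and the ratios kept their values. Depth limits the genes with few fragments, such as Ch25h (1, 8, and 4 in WT mice), Thrsp (4, 11, and 29 in WT mice), and Fdps (36, 26, and 8 in Gm31629-/- mice).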
